A study of Mus musculus with 12 samples.

Results

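The Cyp2 genes code for the largest cytochrome P450 family of mouse liver. Members were all genes of the deposited expression table whose symbol starts with Cyp2, then a letter and a number, without pseudogene names ending in -ps. This gave 46 of the 20719 genes tested, and each of them had 1 probe set. They fell into the subfamilies Cyp2a with 4 members, Cyp2b with 5, Cyp2c with 14, Cyp2d with 9 and Cyp2j with 6, and into 8 subfamilies of 1 member each (Cyp2e1, Cyp2f2, Cyp2g1, Cyp2r1, Cyp2s1, Cyp2t4, Cyp2u1 and Cyp2w1). Liver RNA of 12 mice was hybridised, each to its own array, in 4 groups of 3: starved liver knock-out (KO), fed KO, starved wild-type (WT) and fed WT mice. The KO came from C57BL/6 transgenics for Albumin-Cre, which acts in hepatocytes, crossed to animals whose lamp2 exon 9A lies between loxP sites; several lines were raised, and what alleles the WT mice carried, sex and age are not given in the sources used here. That exon belongs to the lysosomal receptor of chaperone-mediated autophagy, so the study compared livers with and without this route of protein breakdown, fed and starved. Starvation lasted 24 h with free water, and the fed mice of both genotypes had standard chow. Values are log2 expression, so a difference of 1 means 2-fold, and each difference is starved minus fed or KO minus WT.

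Cytochromes P450 are haem enzymes of the endoplasmic reticulum that insert an oxygen atom into their substrate, with electrons handed over by P450 oxidoreductase (Por). Cyp2 enzymes of mouse liver oxidise drugs and other foreign compounds, steroids, arachidonic acid, bile acids and vitamin D. Many Cyp2 genes are under the nuclear receptors CAR (Nr1i3) and PXR (Nr1i2) and under liver factors such as HNF4A, and several differ between the sexes. Most members of a subfamily lie next to each other in the genome and are close in sequence, so a probe set may also read a near-identical relative. This applies above all to Cyp2a4 and Cyp2a5, to Cyp2c38 and Cyp2c39, to Cyp2c37, Cyp2c50 and Cyp2c54, and to the Cyp2d genes, whose single values are uncertain for that reason.

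All 46 members were matched to RefSeq by accession, and 1 of them, Cyp2c44, now has the symbol Cyp2c23 there. Of the members, 15 lie on chromosome 7, 14 (the whole Cyp2c subfamily) on chromosome 19, 9 (the whole Cyp2d subfamily) on chromosome 15 and 6 (the whole Cyp2j subfamily) on chromosome 4. Cyp2u1 lies on chromosome 3 and Cyp2w1 on chromosome 5. A RefSeq promoter on build GRCm38.p6 was at hand for 38 members. The 250 bases before the start are shown for 5 members, which had the largest differences among those called between starved and fed livers for which a promoter was at hand. Each is read 5′ to 3′ along the gene, and capitals mark matches to a motif.
Cyp2c55, chr19:39006769-39007018, plus strand: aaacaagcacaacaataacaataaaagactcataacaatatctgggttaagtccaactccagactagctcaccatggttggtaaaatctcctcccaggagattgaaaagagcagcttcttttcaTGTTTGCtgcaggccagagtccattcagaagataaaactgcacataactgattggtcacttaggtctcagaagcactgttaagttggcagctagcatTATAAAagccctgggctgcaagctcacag
Cyp2c70, chr19:40187287-40187536, minus strand: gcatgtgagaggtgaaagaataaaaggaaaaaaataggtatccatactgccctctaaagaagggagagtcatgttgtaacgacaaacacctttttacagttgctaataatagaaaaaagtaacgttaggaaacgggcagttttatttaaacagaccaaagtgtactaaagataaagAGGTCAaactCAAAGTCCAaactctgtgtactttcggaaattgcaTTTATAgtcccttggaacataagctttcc
Cyp2c38, chr19:39463076-39463325, minus strand: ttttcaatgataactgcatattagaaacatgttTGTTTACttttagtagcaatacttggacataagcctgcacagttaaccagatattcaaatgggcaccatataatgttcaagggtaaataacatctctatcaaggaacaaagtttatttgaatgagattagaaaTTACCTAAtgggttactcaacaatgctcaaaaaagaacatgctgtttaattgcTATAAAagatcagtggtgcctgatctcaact
Cyp2a22, chr7:26939387-26939636, minus strand: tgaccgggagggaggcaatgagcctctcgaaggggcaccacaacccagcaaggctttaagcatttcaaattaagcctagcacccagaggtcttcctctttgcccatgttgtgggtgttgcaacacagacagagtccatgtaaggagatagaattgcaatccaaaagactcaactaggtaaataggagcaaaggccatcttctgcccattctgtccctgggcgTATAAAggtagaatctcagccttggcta
Cyp2r1, chr7:114562973-114563222, minus strand: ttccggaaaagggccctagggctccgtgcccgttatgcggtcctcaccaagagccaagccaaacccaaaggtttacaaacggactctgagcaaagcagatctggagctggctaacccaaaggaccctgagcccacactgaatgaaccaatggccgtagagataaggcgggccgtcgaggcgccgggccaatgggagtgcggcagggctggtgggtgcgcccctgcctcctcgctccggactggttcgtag

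Motifs were searched on both strands in 40 windows of the 38 members and in all 32851 windows of the RefSeq table, and no motif contains another. The TATA box (TATAAA) was found in 18 of 40 member windows and in 12.4% of all windows. It ends 24 bases before the start in Cyp2c55, 26 before it in Cyp2c38 and 23 before it in Cyp2a22. In Cyp2c70 the match also ends 24 bases before the start, but it reads TTTATA, which is the motif on the opposite strand. The FOXA motif (TGTTTNC) was found in 6 member windows, those of Cyp2c55 and Cyp2c38 among them, and in 17.8% of all. A D-box-like pattern (TTANGTAA, with any base at N) was in 1 member window, that of Cyp2c38, and in 2.06% of all. In Cyp2c38 the match reads TTACCTAA, which fits the pattern only on the opposite strand. Whether the D-box factors Dbp and Tef bind this stretch was not tested. The nuclear receptor site AGGTCA was in 10 member windows, Cyp2c70 among them, and in 14.0% of all. The C/EBP motif (TTGCNNAA) was in 10 member windows against 9.56% of all, and the STAT5 motif (TTCNNNGAA) in 2 against 7.02%. The window of Cyp2r1 holds none of the 7 motifs. These are matches of letters and not measured binding sites.

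The HNF4 motif CAAAGTCCA was found in 126 windows in all (0.384%), and 5 of them belong to Cyp2c members: Cyp2c70, whose match in the sequence above lies 64 to 56 bases before the start, and the 4 below. They are shown because Cyp2c70 alone of these 5 was called between starved and fed livers, while Cyp2c40, Cyp2c65, Cyp2c67 and Cyp2c68 had averaged differences of -0.24, -0.16, -0.25 and -0.19 (limma adjusted p = 0.475, 0.483, 0.463 and 0.646). Capitals mark the motif.
Cyp2c40, chr19:39812841-39812869, minus strand: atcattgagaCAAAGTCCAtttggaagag
Cyp2c65, chr19:39060880-39060908, plus strand: gatgttggaaCAAAGTCCActgggaggag
Cyp2c67, chr19:39649149-39649177, minus strand: atcattgagaCAAAGTCCAtttggaagca
Cyp2c68, chr19:39741160-39741188, minus strand: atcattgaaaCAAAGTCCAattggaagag

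A few facts of the arrays bear on all results. Lamp2, the targeted gene, had 12.33, 12.56 and 12.60 in KO starved, 12.51, 12.81 and 12.49 in KO fed, 12.68, 12.49 and 12.54 in WT starved and 12.61, 12.24 and 12.25 in WT fed livers, but the position of its probes was not analysed here, so these values do not check a deletion of 1 exon. Hepatocyte markers averaged between 13.59 and 13.98 on every array. The Y-linked Ddx3y lay between 9.09 and 9.97, Eif2s3y between 9.04 and 9.72, Kdm5d between 6.51 and 7.75 and Uty between 8.41 and 9.14. Xist lay between 3.86 and 4.58, so no array lacked Y-linked signal or had high Xist. These genes were not all level with feeding: Eif2s3y had 9.59 to 9.72 in starved and 9.04 to 9.51 in fed livers. Of the 5 sex chromosome genes measured, 1 was called higher in the averaged starvation difference. High Y-linked and low Xist values are the pattern of male liver, though the labels give no sex. WT starved replicate 3 has a title code unlike those of the other starved mice and the narrowest spread of values, with an interquartile range of 2.62 against 2.74 to 3.06 on the other 11 arrays; results below that turn on it are also given without it. It is listed as a sample of its own beside WT starved replicate S3 and is taken here as another mouse. Among the 6 arrays of the widest spread were 4 of 6 starved and 2 of 6 fed arrays, and whether the spread moved with feeding was not tested. Nothing in the labels says more of the mice than 1 per array, so p-values measure the spread between these mice. The number of arrays limits the precision.

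Over both genotypes, starvation changed 8 of the 46 Cyp2 genes (17.4%): Cyp2a22, Cyp2a5 and Cyp2c38 rose, and Cyp2c55, Cyp2c70, Cyp2c29, Cyp2r1 and Cyp2u1 fell. This is the mean of the starvation differences of the 2 genotypes, tested with limma over all 20719 genes and called at an adjusted p under 0.05, and 5.16% of all genes were called in it (2.32% higher, 2.84% lower). The median difference of the members was -0.05 against -0.02 over all genes, while the median size of a difference, whatever its sign, was 0.23 among the members and 0.11 among all genes. No filter on low values was used, and 8 of the 46 members had a mean below the 25th percentile of gene means (5.49). In the liver as a whole, fewer cells of a type and less RNA per cell cannot be told apart. At an unadjusted p under 0.05 stood 17 of the 46 members, beside 3666 of the 20719 genes (17.7%).

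**Figure D1:**
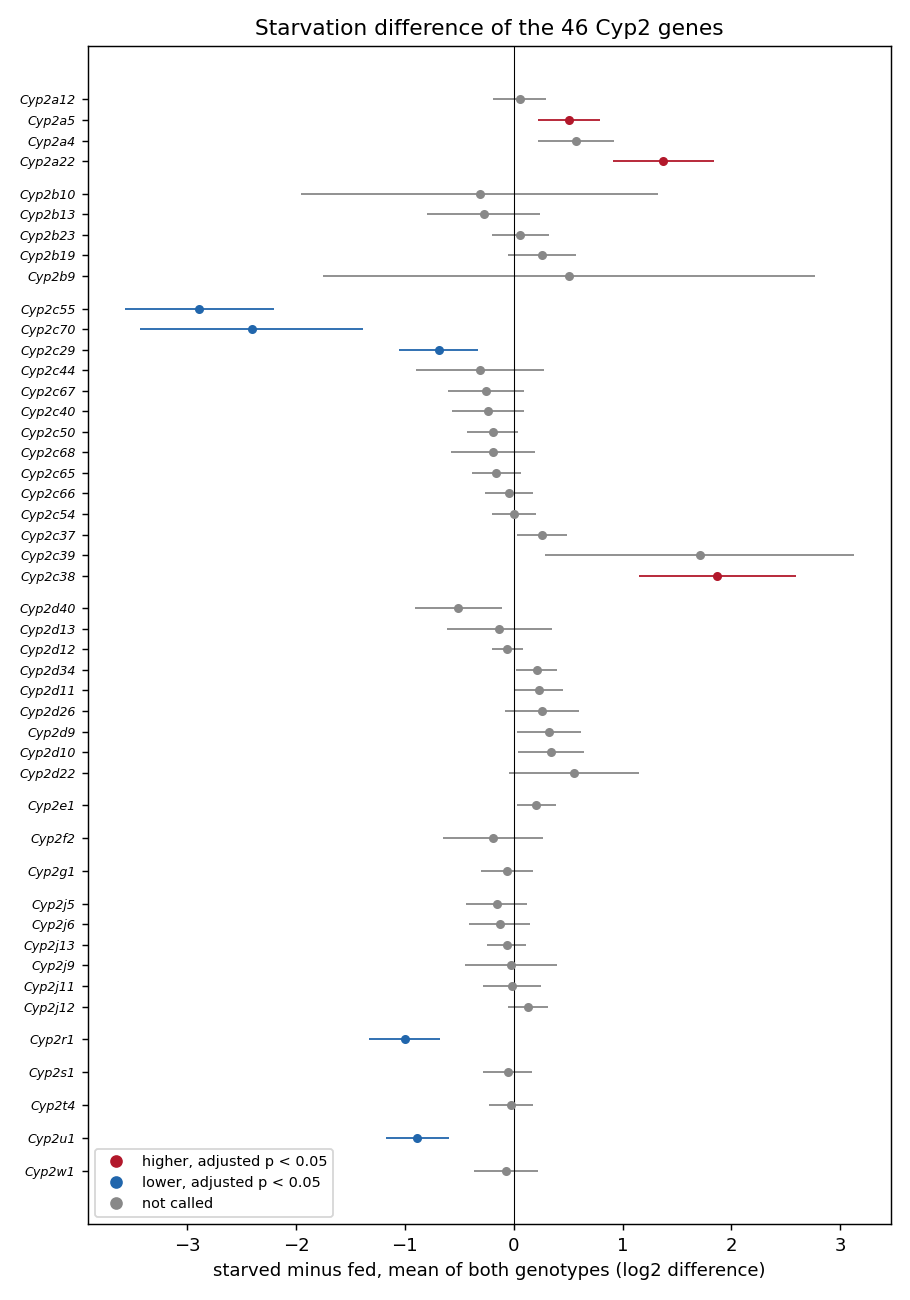
Starved minus fed difference (log2, mean of both genotypes) of the 46 Cyp2 genes, grouped by subfamily. Points are limma estimates from 12 arrays and lines their 95% confidence intervals; the 3 members in red rose, the 5 in blue fell, and the 38 in grey were not called.

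Cyp2c55, which oxidises arachidonic acid, showed the largest difference of the family. It had 5.18, 5.12 and 4.95 in KO starved livers and 8.25, 7.64 and 8.72 in KO fed livers. In WT livers it had 5.47, 5.15 and 7.03 after starvation and 8.03, 8.47 and 9.11 in the fed state. Every starved liver was below every fed liver, and WT starved replicate 3, at 7.03, lay between the other starved and the fed livers. The averaged difference was -2.89 (SE 0.31, 7.40-fold lower in starved livers, limma adjusted p = 0.000484), and it was called in each genotype on its own, with -3.12 in KO (SE 0.44, limma adjusted p = 0.00815) and -2.65 in WT livers (SE 0.44, limma adjusted p = 0.0170). Without WT starved replicate 3 the WT difference was -3.23. The WT call was lost when only the 2 WT groups were fitted (adjusted p = 0.131) or when WT fed replicate F2 or F4 or WT starved replicate S3 or S4 was left out (adjusted p = 0.0564 to 0.0802), and the KO call without KO fed replicate F5 (adjusted p = 0.0512).

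Cyp2c70 makes the muricholic acids, the bile acids typical of mice. Its values were 10.32, 11.37 and 10.92 in KO starved and 13.36, 13.64 and 13.12 in KO fed livers. WT starved livers had 10.22, 9.61 and 13.00, and WT fed livers 13.54, 13.00 and 13.22. The KO groups did not overlap, and in WT the 2 low values belonged to replicates S3 and S4, while WT starved replicate 3 was level with the lowest fed liver. The averaged fall was called (-2.41, SE 0.47, 5.31-fold lower, limma adjusted p = 0.0126), whereas the difference within KO (-2.51, SE 0.66, limma adjusted p = 0.123) and within WT (-2.31, SE 0.66, limma adjusted p = 0.134) was not. Without WT starved replicate 3 the differences were -2.51 in KO, -3.34 in WT and -2.92 averaged, and all were called (limma adjusted p = 0.0015, 0.000481 and 3.15e-05). Within arrays of a wide spread the WT difference was -3.62 and within arrays of a narrow spread, where replicate 3 is the only starved array, it was -0.11; in KO the same values were -2.50 and -2.93.

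Cyp2c29, an arachidonic acid epoxygenase, differed less. It had 12.22, 13.08 and 12.90 in KO starved, 13.56, 13.79 and 13.51 in KO fed, 12.85, 12.58 and 13.36 in WT starved and 13.64, 13.31 and 13.31 in WT fed livers. The groups overlapped in WT through replicate 3 and not in KO. The averaged difference was -0.69 (SE 0.17, 1.61-fold lower, limma adjusted p = 0.036), but the call held in only 2 of 12 fits that left out 1 array, those without WT starved replicate 3 or KO starved replicate S6, and the adjusted p otherwise reached 0.0931. In KO it was -0.80 within wide and -1.32 within narrow arrays, and in WT -0.93 within wide and 0.04 within narrow ones. In each genotype the wide arrays were 2 starved and 1 fed, and the narrow ones 1 starved (in WT replicate 3) and 2 fed.

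Cyp2c38, another arachidonic acid oxidase, went the other way. It had 10.59, 11.50 and 11.44 in KO starved and 8.67, 10.11 and 8.63 in KO fed livers, and 11.02, 11.03 and 9.99 in WT starved and 9.75, 8.74 and 8.45 in WT fed livers. Within each genotype the starved livers were above all fed ones. The averaged rise was 1.87 (SE 0.33, 3.65-fold, limma adjusted p = 0.00769), made of 2.04 in KO and 1.70 in WT livers, neither of them called alone (limma adjusted p = 0.071 and 0.115).

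Cyp2c39, a retinoic acid hydroxylase and the direct neighbour of Cyp2c38, had 12.43, 13.12 and 13.28 in KO starved livers. It had 10.06, 11.36 and 10.13 in KO fed, 10.38, 10.09 and 11.07 in WT starved and 11.56, 10.24 and 6.78 in WT fed livers. The 3 KO starved livers were above all 9 others, and the lowest value was that of WT fed replicate F4. The difference was 2.43 in KO (SE 0.91, limma adjusted p = 0.371), 0.99 in WT (SE 0.91, limma adjusted p = 0.704) and 1.71 averaged (SE 0.65, limma adjusted p = 0.182), none of them called. It was called higher in KO with the 2 KO groups alone and without WT fed replicate F4, over both genotypes without WT fed replicate F1, and in KO, WT and both with array weights, by which limma counts less regular arrays for less.

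**Figure D2:**
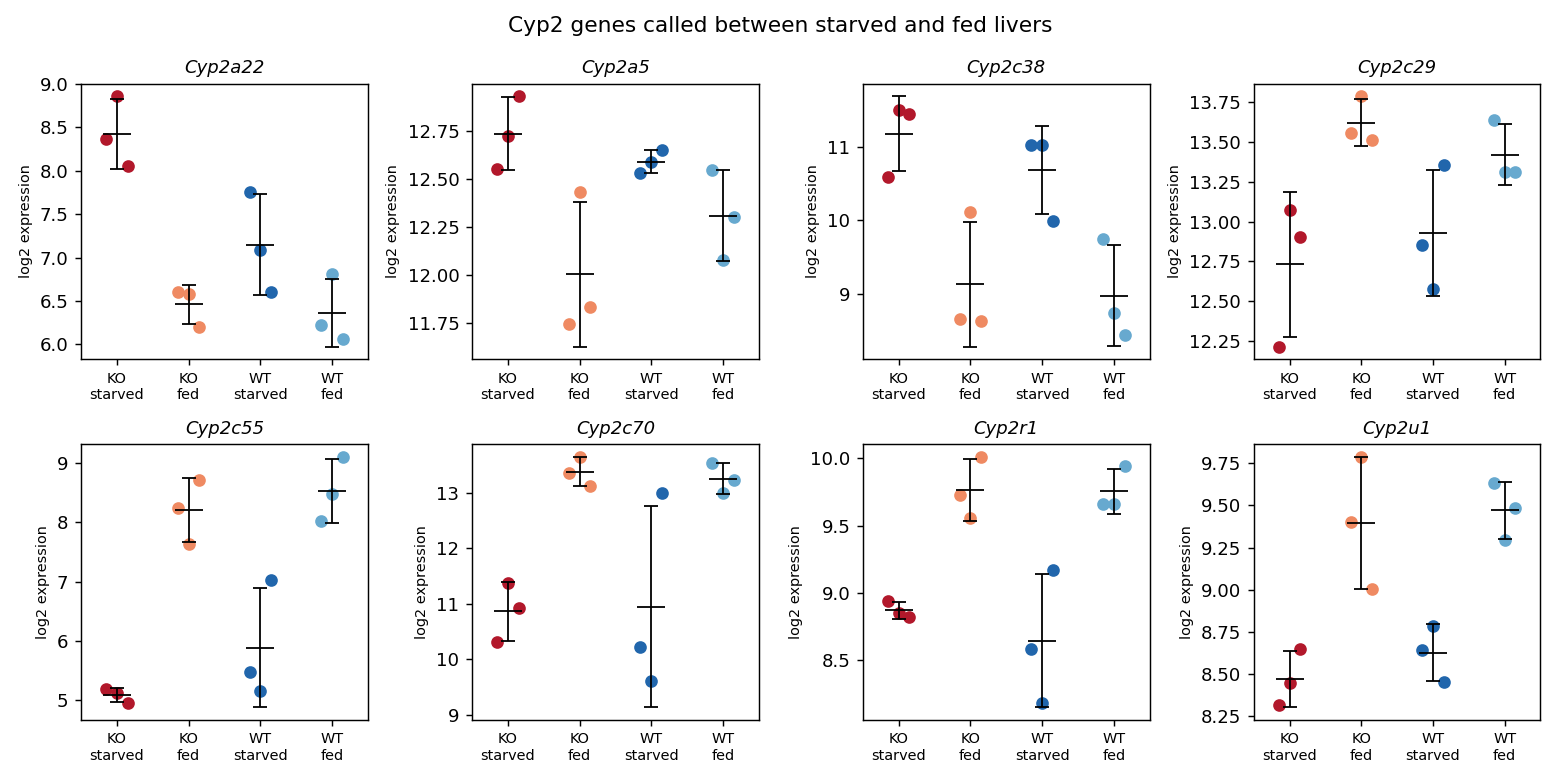
Log2 expression of the 8 Cyp2 genes called between starved and fed livers, by group, with KO starved, KO fed, WT starved and WT fed from left to right in each panel. Points are single mice (3 per group), the long bar is the mean and the whiskers are 1 SD; all starved values of Cyp2c55, Cyp2r1 and Cyp2u1 lie below all fed values.

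In the order of the 14 Cyp2c genes along chromosome 19 (Cyp2c55, Cyp2c65, Cyp2c66, Cyp2c29, Cyp2c39, Cyp2c38, Cyp2c67, Cyp2c68, Cyp2c40, Cyp2c37, Cyp2c54, Cyp2c50, Cyp2c70, Cyp2c44), the genes that fell and rose did not form 1 block. Cyp2c55 is the first and Cyp2c70 the last but one, Cyp2c29 is the fourth, and Cyp2c38 stands among genes that were not called. Over the subfamily, 1 gene rose, 3 fell and 10 were not called, with 10 of 14 estimates below 0 and a median of -0.19. Cyp2c50 and Cyp2c54, which lie beside each other between Cyp2c37 and Cyp2c70, had averaged differences of -0.19 and 0.00. Cyp2c37 had 0.26, and Cyp2c44, an arachidonic acid epoxygenase, -0.31 (SE 0.27, limma adjusted p = 0.628).

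**Figure D3:**
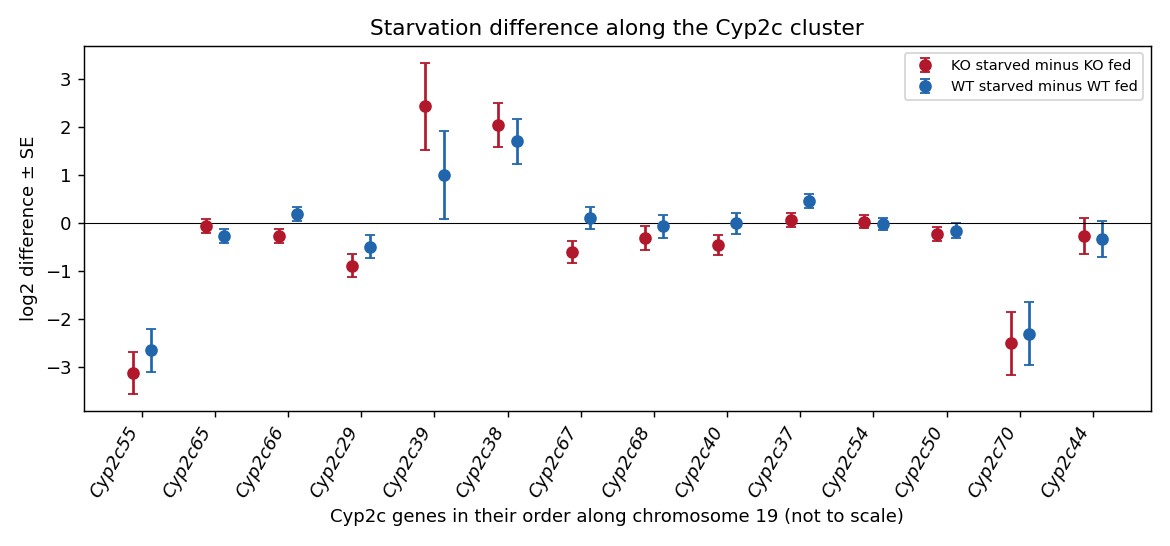
Starved minus fed difference (log2, limma estimate with its SE, 3 mice per group) of the 14 Cyp2c genes in their order along chromosome 19, in KO (red) and WT livers (blue). Cyp2c55 and Cyp2c70 have the lowest differences in both genotypes, and Cyp2c38 and Cyp2c39 the highest.

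In the Cyp2a subfamily, which clears coumarin, nicotine and steroids, 2 of 4 genes rose, none fell, and all 4 estimates were above 0 (median 0.54). Cyp2a22 had 8.36, 8.86 and 8.05 in KO starved and 6.60, 6.58 and 6.21 in KO fed livers, and 7.76, 7.09 and 6.60 in WT starved and 6.22, 6.81 and 6.07 in WT fed livers. The KO groups stood clear of each other, and the WT groups overlapped through WT starved replicate 3. The averaged rise was 1.38 (SE 0.21, 2.59-fold, limma adjusted p = 0.00367). In KO alone Cyp2a22 rose by 1.96 (SE 0.30, 3.90-fold, limma adjusted p = 0.0115), a call lost without KO fed replicate F5 or KO starved replicate S6 (adjusted p = 0.0557 and 0.0608). In WT the difference was 0.79 (SE 0.30, limma adjusted p = 0.283). Without WT starved replicate 3 the WT difference was 1.06 (SE 0.29, limma adjusted p = 0.0884), also not called.

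Cyp2a5, the coumarin hydroxylase, had 12.55, 12.72 and 12.93 in KO starved and 11.74, 12.43 and 11.83 in KO fed livers. It had 12.53, 12.59 and 12.65 in WT starved and 12.55, 12.08 and 12.30 in WT fed livers. Only the WT groups overlapped, through WT fed replicate F1. The averaged rise of 0.51 (SE 0.13, 1.42-fold, limma adjusted p = 0.047) lay just inside the threshold and held in 2 of 12 fits that left out 1 array, those without WT fed replicate F1 or KO fed replicate F6, with adjusted p-values up to 0.128 in the others. Its near relative Cyp2a4, a steroid hydroxylase, had an averaged difference of 0.57 just outside it (SE 0.16, limma adjusted p = 0.0644).

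Cyp2a12, which hydroxylates secondary bile acids again, was level. It had 12.65, 13.01 and 12.91 in KO starved, 12.75, 13.05 and 12.51 in KO fed, 12.86, 12.99 and 12.83 in WT starved and 13.10, 12.70 and 12.80 in WT fed livers. Starved and fed values overlapped, and the averaged difference was 0.06 with a 95% interval of -0.19 to 0.30.

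Among the subfamilies of 1 member, 2 of 8 genes fell. Cyp2r1 is the hydroxylase that starts the activation of vitamin D in the liver. It had 8.94, 8.85 and 8.82 in KO starved, 9.73, 9.56 and 10.01 in KO fed, 8.59, 8.18 and 9.17 in WT starved and 9.66, 9.66 and 9.94 in WT fed livers. All 6 starved livers were below all 6 fed livers. The averaged fall was -1.0 (SE 0.15, 2.0-fold lower, limma adjusted p = 0.00324), with -1.11 in WT (SE 0.21, limma adjusted p = 0.0304) and -0.89 in KO livers (SE 0.21, limma adjusted p = 0.0821, not called). Without WT starved replicate 3 both were called, at -0.89 in KO and -1.37 in WT, while 9 of 25 alternatives ended the WT call, with adjusted p-values up to 0.185. They were cyclic loess, the fit of the 2 WT groups alone and the fits without WT fed replicate F2 or F4, WT starved S3 or S4, KO fed F5 or KO starved S6 or S7.

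Cyp2u1, a fatty acid hydroxylase listed as higher in male than female mouse liver, had 8.32, 8.45 and 8.65 in KO starved and 9.40, 9.79 and 9.00 in KO fed livers. In WT it had 8.64, 8.79 and 8.45 in starved and 9.63, 9.29 and 9.49 in fed livers. Here too no starved liver reached a fed one. The averaged fall was -0.89 (SE 0.13, 1.85-fold lower, limma adjusted p = 0.00302). It was called in KO (-0.93, SE 0.19, limma adjusted p = 0.0431) and lay just outside the threshold in WT (-0.85, SE 0.19, limma adjusted p = 0.0503), and 11 of 25 alternatives ended the KO call, with adjusted p-values up to 0.175. They were median centring, the trend and robust options, the fit of the 2 KO groups alone and the fits without WT fed replicate F2 or F4, WT starved S3, KO fed F5 or F6 or any of the 3 KO starved mice. Cyp2c55, Cyp2r1 and Cyp2u1 were the only members whose 6 starved and 6 fed values did not overlap, all lower, beside 3.87% of all genes (1.69% higher, 2.18% lower).

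Cyp2e1, which oxidises ethanol and acetone, had 14.11, 14.22 and 14.20 in KO starved, 13.91, 14.14 and 13.88 in KO fed, 14.14, 14.07 and 14.00 in WT starved and 14.06, 13.73 and 13.78 in WT fed livers. The starved values lay a little higher and overlapped the fed ones, and its averaged difference of 0.21 (95% interval 0.03 to 0.39) was not called (limma adjusted p = 0.199), except with array weights. Cyp2f2, which oxidises naphthalene in mouse airways, had 12.57, 13.43 and 13.41 in KO starved, 13.45, 13.93 and 13.14 in KO fed, 13.39, 13.46 and 13.21 in WT starved and 13.83, 12.80 and 13.46 in WT fed livers. Its groups overlapped as well.

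The other 4 single members had low values that differed little. Cyp2g1, an enzyme of the olfactory mucosa, had 4.79, 4.90 and 4.91 in KO starved, 4.89, 4.88 and 5.22 in KO fed, 4.71, 4.69 and 5.04 in WT starved and 5.09, 4.63 and 4.70 in WT fed livers. Cyp2s1, known from epithelia outside the liver, had 5.75, 6.13 and 6.26 in KO starved, 6.16, 6.33 and 6.19 in KO fed, 6.05, 6.17 and 6.25 in WT starved and 6.28, 5.89 and 6.08 in WT fed livers. Both genes overlapped between all groups.

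Cyp2t4 had 4.81, 4.74 and 4.62 in KO starved, 4.91, 4.58 and 4.62 in KO fed, 4.71, 4.57 and 5.03 in WT starved and 4.81, 4.88 and 4.84 in WT fed livers. Cyp2w1, which in humans is known from fetal gut and colon tumours, had 6.11, 6.09 and 6.38 in KO starved, 6.24, 6.12 and 6.62 in KO fed, 6.30, 6.08 and 6.84 in WT starved and 6.37, 6.36 and 6.53 in WT fed livers. The averaged differences of Cyp2f2, Cyp2g1, Cyp2s1, Cyp2t4 and Cyp2w1 lay between -0.19 and -0.03, and none was called.

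In the Cyp2d subfamily, relatives of the human drug-oxidising enzyme CYP2D6, no gene was called by limma in any comparison. In the averaged starvation difference 5 of 9 had an unadjusted p under 0.05, beside 17.7% of all genes. Array weights called 7 of them there, 6 higher and 1 lower (Cyp2d40), as well as 6 higher in KO and 3 higher in WT. Of all 20719 genes they called 9499 averaged, 7639 in KO and 5600 in WT. Leaving out 1 array called Cyp2d10 higher (without WT fed replicate F1) or Cyp2d40 lower (without WT starved replicate S3). The estimates ran from -0.51 for Cyp2d40 to 0.55 for Cyp2d22, with 6 of 9 above 0 and a median of 0.23. Cyp2d26 had 13.17, 13.71 and 13.74 in KO starved, 13.19, 13.58 and 13.02 in KO fed, 13.69, 13.62 and 13.29 in WT starved and 13.66, 12.96 and 13.24 in WT fed livers. Starved and fed values overlapped in both genotypes. Cyp2d9, a steroid hydroxylase of male liver, had 0.33 (SE 0.14, limma adjusted p = 0.232).

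The Cyp2j subfamily, whose enzymes make epoxides of arachidonic acid, was called in no starvation comparison by limma, and at an unadjusted p under 0.05 none of 6 passed in the averaged difference, where array weights called Cyp2j11 lower; in KO they called Cyp2j9 higher. Cyp2j5 had 11.81, 12.23 and 12.24 in KO starved, 12.30, 12.60 and 12.11 in KO fed, 12.27, 12.08 and 12.17 in WT starved and 12.56, 11.92 and 12.26 in WT fed livers. Its groups overlapped, and the 6 averaged differences lay between -0.16 and 0.13.

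Among the Cyp2b genes, some of which respond to phenobarbital through CAR, Cyp2b9 and Cyp2b10 varied more within groups than between them. Cyp2b10, the usual readout of CAR activity, had 11.00, 9.93 and 7.86 in KO starved, 9.41, 8.86 and 10.07 in KO fed, 7.73, 12.24 and 10.55 in WT starved and 12.22, 10.73 and 9.88 in WT fed livers. Cyp2b9, a gene of female mouse liver, had 8.34, 12.04 and 11.05 in KO starved, 8.41, 9.34 and 8.91 in KO fed, 12.36, 10.02 and 5.89 in WT starved and 11.90, 9.90 and 8.20 in WT fed livers. In WT starved livers the genes ran apart, since replicate S3 had the highest Cyp2b9 and the lowest Cyp2b10, while in WT fed livers replicates F1, F2 and F4 had the same order for both.

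The pooled SD within groups was 2.12 for Cyp2b9, the highest of all 20719 genes. That of Cyp2b10 was 1.54 (rank 4) and that of Cyp2c39 was 1.33 (rank 7), so 3 of the 10 highest were Cyp2 genes. The median was 0.258 among the members and 0.186 among all genes, and 12 of 46 members lay above the 90th percentile. No Cyp2b gene was called by limma in any comparison with equal weights; array weights called Cyp2b9 higher over both genotypes, Cyp2b9 and Cyp2b19 higher in KO starved than KO fed livers, and Cyp2b19 lower in KO fed than WT fed livers. The averaged starvation difference of Cyp2b10 was -0.31 with a 95% interval of -1.95 to 1.33, and that of Cyp2b9 was 0.51 with an interval of -1.75 to 2.76. Differences of more than 2-fold in either direction were thus not excluded with these mice. Cyp2b9 turned on WT starved replicate 3 (5.89): without it the averaged difference was 1.39 (SE 0.80) and the WT difference 1.19, against -0.58 with it, and none was called. Cyp2b13, also a gene of female liver, lay between 4.67 and 5.01 in KO starved livers and had 4.74, 4.74 and 4.66 in KO fed, 4.92, 4.69 and 4.65 in WT starved and 6.44, 5.40 and 4.61 in WT fed livers. Only WT fed replicates F1 and F2 stood above the others. Cyp2b19 and Cyp2b23 varied less, with pooled SDs of 0.27 and 0.22. Cyp2b19 differed by 0.39 between KO starved and KO fed livers and by -0.40 between KO fed and WT fed livers, neither called with equal weights.

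**Figure D4:**
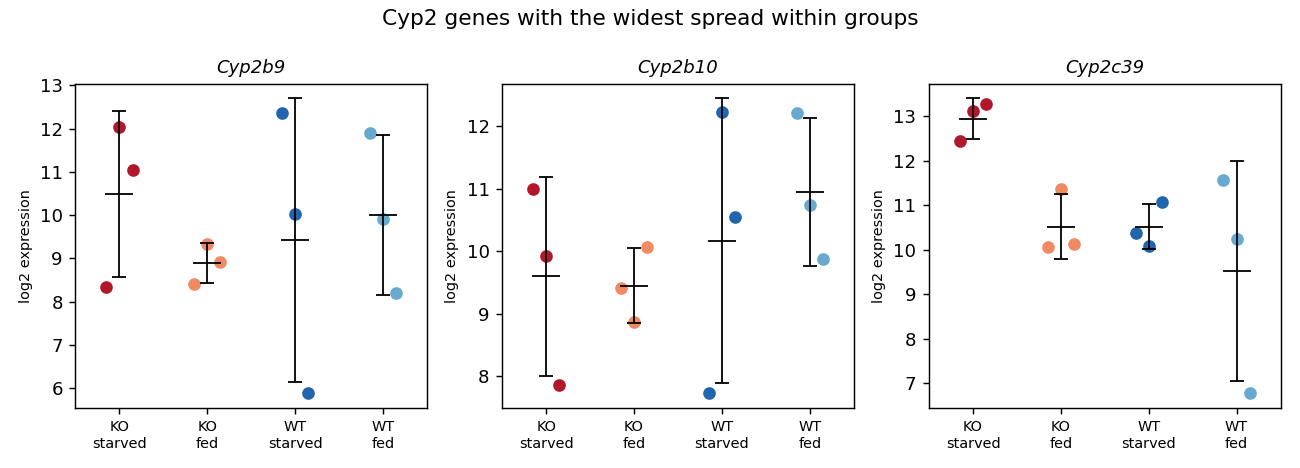
Log2 expression of Cyp2b9, Cyp2b10 and Cyp2c39, the 3 Cyp2 genes with the widest spread within groups, in KO starved, KO fed, WT starved and WT fed livers. Points are single mice (3 per group), the long bar is the mean and the whiskers are 1 SD; Cyp2b9 runs from 5.89 to 12.36 within the WT starved group alone.

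Taken by genotype, starvation changed 3 members in KO livers (Cyp2a22 rose, Cyp2c55 and Cyp2u1 fell), beside 1.02% of all genes (0.487% higher, 0.536% lower), and 2 in WT livers (Cyp2c55 and Cyp2r1 fell), beside 1.41% of all genes (0.661% higher, 0.748% lower). Unadjusted p-values under 0.05 were reached by 11 of 46 members in KO (9.32% of all genes) and 9 of 46 in WT (12.7% of all genes). Values did not overlap for 13 of 46 members in KO, 7 higher and 6 lower, beside 16.5% of all genes (6.61% higher, 9.87% lower). They did not overlap for 6 of 46 in WT, 3 higher and 3 lower, beside 13% of all genes (5.27% higher, 7.73% lower). Array weights raised the calls to 25 in KO and 13 in WT and those of all genes to 7639 and 5600. The family medians were -0.02 in KO and -0.01 in WT livers.

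The difference between these responses, KO minus WT, was called for no member and for no gene (limma, 0% of genes). At an unadjusted p under 0.05 were 4 of 46 members, Cyp2a22, Cyp2c66, Cyp2c67 and Cyp2j12, beside 2.04% of all genes, and array weights called none. For Cyp2a22 it was 1.18 (SE 0.42, 95% interval 0.25 to 2.10, limma adjusted p = 1.00). Without WT starved replicate 3 it was 0.90 (SE 0.39) and not called. The interval for Cyp2c55 was -1.84 to 0.90 and that for Cyp2c70 was -2.25 to 1.85. A 2-fold difference between the genotypes' responses was thus not excluded, downward for Cyp2c55 and in either direction for Cyp2c70. Both estimates changed sign without WT starved replicate 3: that of Cyp2c55 was -0.47 with it and 0.11 without it (SE 0.45), that of Cyp2c70 -0.20 with it and 0.83 without it (SE 0.41), and neither was called.

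Between genotypes no Cyp2 gene was called by limma, in starved or in fed mice or averaged, and no other gene was either (0% in each). In starved mice 4 of 46 members had an unadjusted p under 0.05 (3.59% of all genes), in fed mice 3 of 46 (2.91%) and averaged 3 of 46 (4.65%). Values did not overlap for 5 of 46 members between KO starved and WT starved livers, 3 higher and 2 lower, beside 9.81% of all genes (3.51% higher, 6.3% lower). They did not overlap for 3 of 46 between KO fed and WT fed livers, 2 higher and 1 lower, beside 7.97% of all genes (2.61% higher, 5.36% lower). Only with array weights were members called, 5 in fed mice (Cyp2c39 and Cyp2j12 higher, Cyp2a4, Cyp2a5 and Cyp2b19 lower in KO) and 2 averaged (Cyp2a22 and Cyp2c39, both higher in KO), while 1267 and 170 of all genes were called there.

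Among starved mice, the genotype differences farthest from 0 were those of Cyp2c39, 2.43 (SE 0.91, 95% interval 0.43 to 4.43), and Cyp2a22, 1.27 (SE 0.30, 95% interval 0.62 to 1.93), each with a limma adjusted p of 1.00. They share the KO starved livers with the starvation difference in KO. Without WT starved replicate 3 they were 2.71 (SE 1.07) for Cyp2c39 and 1.00 (SE 0.29) for Cyp2a22, and neither was called. Cyp2c37, an arachidonic acid hydroxylase, went the other way. It had 11.98, 12.55 and 12.27 in KO starved livers and 12.96, 12.83 and 12.74 in WT starved livers, which did not overlap, and 12.10, 12.35 and 12.16 in KO fed livers and 12.57, 12.35 and 12.25 in WT fed livers. Its difference between starved genotypes was -0.57 (SE 0.15, limma adjusted p = 1.00). The estimate of Cyp2b9 in starved mice was 1.05 (SE 1.46) and became -0.71 (SE 1.20) without WT starved replicate 3, and that of Cyp2c70 was -0.08 (SE 0.66) and became 0.95 (SE 0.30); none was called. In fed mice Cyp2b10 had -1.50 (SE 1.06) and Cyp2b9 -1.11 (SE 1.46), with overlapping values.

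**Figure D5:**
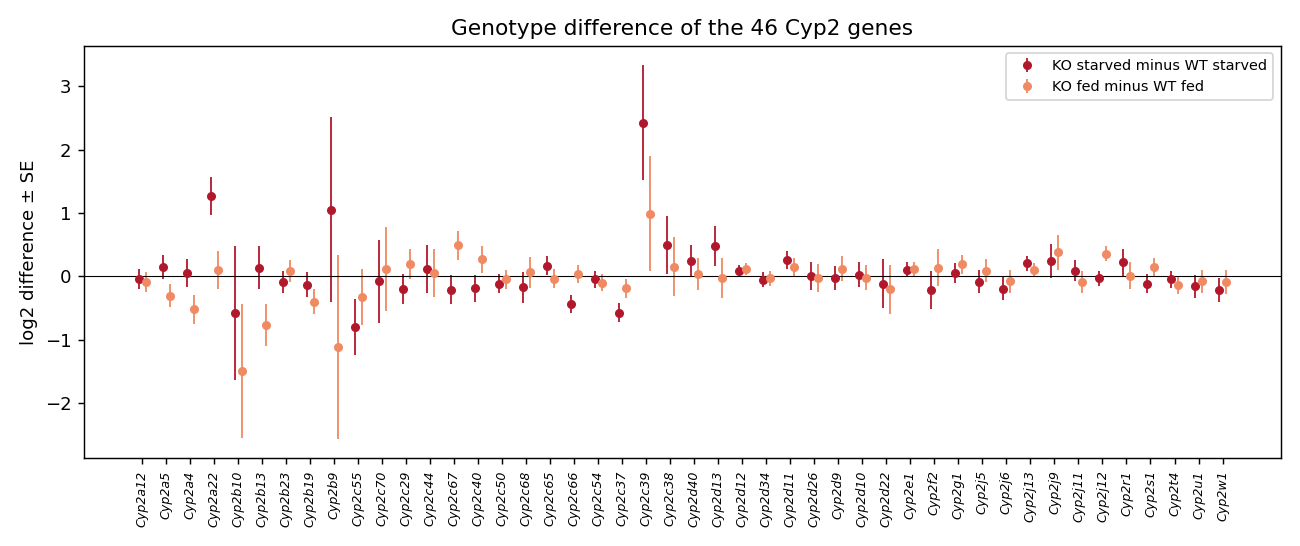
KO minus WT difference (log2, limma estimate with its SE, 3 mice per group) of the 46 Cyp2 genes in starved (red) and fed mice (orange). None was called; Cyp2c39 in starved mice has the highest estimate, 2.43, and Cyp2b10 in fed mice the lowest, -1.50.

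Of the partner and haem supply list of P450 enzymes, 15 of 16 genes were measured, and starvation raised 2 of them over both genotypes and lowered none. Por, the electron donor of all microsomal P450 enzymes, had 10.91, 11.25 and 11.49 in KO starved, 8.81, 9.51 and 8.58 in KO fed, 11.25, 11.96 and 10.90 in WT starved and 10.20, 9.06 and 9.35 in WT fed livers. Every starved liver was above every fed one, and the averaged rise was 2.05 (SE 0.24, limma adjusted p = 0.000906). Blvrb, a biliverdin reductase, rose by 0.39, and the other 13 genes, among them Alas1, which starts haem synthesis, were not called.

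Of 26 regulators of Cyp2 transcription, 5 rose and 2 fell over both genotypes. The nuclear receptor CAR (Nr1i3) rose by 1.11 (SE 0.18, limma adjusted p = 0.00485) and its coactivator Ppargc1a by 1.84. The clock-output factors Dbp and Tef rose by 1.25 and 0.86 and Cux2, a repressor known from female liver, by 0.45. The corepressor Nr0b2 and the pioneer factor Foxa2 had differences of -0.93 and -0.39 and fell. Of 18 measured CAR and PXR targets outside the family, 2 rose (Gadd45b by 2.06 and the transporter Slco1a4 by 0.99) and 3 fell (Gstm3, Ces2a and Aldh1a7, with -1.15, -0.82 and -0.51), so these targets moved in both directions, as the Cyp2 genes did.

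Sex-biased members were described as a list of their own, in livers that all had the male pattern of Ddx3y and Xist. None of the 6 measured female-biased members (Cyp2a4, Cyp2b9, Cyp2b10, Cyp2b13, Cyp2c40 and Cyp2g1) was called by limma in any comparison. At an unadjusted p under 0.05, Cyp2a4 stood higher in the averaged starvation difference and in that of KO (17.7% and 9.32% of all genes). Between fed genotypes, Cyp2a4 and Cyp2b13 stood lower in KO at that threshold, with -0.52 and -0.77 (2.91% of all genes). Array weights called Cyp2a4 and Cyp2b9 higher in the averaged starvation difference and in KO. They called Cyp2c40 lower in KO and Cyp2a4 lower in KO fed than WT fed livers. With equal weights Cyp2a4 was called higher, averaged and in KO, with the spread split at the median as a block, with the spread as a covariate and without KO fed replicate F6, and averaged without WT fed replicate F1. Of the 2 male-biased members Cyp2u1 fell and Cyp2d9 was not called.

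The 46 measured genes of other P450 families had 10 calls (21.7%) in the averaged starvation difference, 6 higher and 4 lower, against 8 (17.4%) in the Cyp2 family, and whether these shares differ was not tested. The fatty acid hydroxylases Cyp4a14, Cyp4a31, Cyp4a10 and Cyp4a32 rose by 4.59, 3.10, 2.69 and 2.49, beyond any Cyp2 rise. Cyp17a1 rose by 3.25 and the bile acid enzyme Cyp8b1 by 1.93, while Cyp26a1, Cyp4f14, Cyp1a2 and Cyp4a12a fell, with -2.15, -1.41, -1.33 and -0.67.

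Markers of liver zones and other cells moved in part with starvation. Of 10 pericentral hepatocyte markers 2 rose (Oat and Lhpp, by 0.93 and 1.23) and 1 fell (Cyp1a2), and the list averaged 9.02 to 9.76 in KO starved, 9.12 to 9.86 in KO fed, 9.32 to 9.74 in WT starved and 9.06 to 9.79 in WT fed livers. Of 8 periportal markers 1 rose (Hsd17b13, by 0.54). Of 7 erythroid markers 2 fell (Alas2 and Car1, with -1.30 and -1.78), while the other 5 had differences above 0 that were not called (0.10 for Hbb-b1 to 0.79 for Ahsp), and the list's median was 0.25. In KO the erythroid median was 0.49, with 5 of 7 above 0 and 6 at an unadjusted p under 0.05, in WT it was -0.04, and KO minus WT in starved mice was above 0 for 7 of 7 (median 0.43, none called, 3 at an unadjusted p under 0.05). The erythroid list had means of 9.81 to 10.57 in KO starved, 9.80 to 10.23 in KO fed, 9.15 to 9.78 in WT starved and 10.02 to 10.20 in WT fed livers. The sinusoidal endothelial marker Fcgr2b and the acinar marker Cela1 fell (-0.54 and -0.65), and no Kupffer, stellate, bile duct, lymphocyte or adipocyte marker was called. These markers' part in the Cyp2 differences was not tested. With the array spread as a block in 2 classes split at the median, 10 members were called over both genotypes, the 8 named above among them. Split at the largest gap, the block set apart WT starved replicate 3 alone, so it gave the same result as leaving that array out. There 7 were called, and Cyp2a5 was lost (limma adjusted p = 0.0647).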

How the data were processed

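RNA of 1 liver piece per mouse was labelled for Affymetrix whole-transcript arrays, per the labels' protocols. The deposited values are log2 expression per probe set, for which the submitters' processing notes name RMA, oligo and limma as the authors' tools; the array model, annotation, genome build and tool versions are not given in the sources used here. RMA adjusts arrays to one another by quantiles, so a difference is relative to the rest of the array, and low values cannot be told from background. Of 28944 lines, 5132 had no symbol; the line with the highest mean stood for each of 20719 genes. The series matrix held the same values in 347328 of 347328 cells.

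The deposited log2 values were tested in R 4.3.3 by limma 3.58.1 (lmFit and eBayes, 4 group means, 12 arrays, 8 residual and 3.38 prior degrees of freedom), for 7 contrasts, each with Benjamini-Hochberg adjustment across the 20719 genes. The median SE over all genes was 0.150 for 2 groups, 0.106 for an averaged effect and 0.212 for the interaction. The fit was tested on simulated data. Every member could be named; values of every array are given for members called in any contrast and for the member with the highest mean in each subfamily, and for Cyp2b9, Cyp2c37, Cyp2c39 and, in part by range, Cyp2b13, which were chosen after their values were seen. Members, lists and tests were chosen with earlier results of these data known, and 2 alternatives, both on the array spread, were added after seeing the data. Sequences, symbols and gene order are from RefSeq (GRCm38.p6), and plots used Python 3.11.15 and matplotlib 3.10.9.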

Additional observations from a re-analysis of the deposited data

How the results depend on the processing

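The averaged starvation calls of Cyp2a22, Cyp2c38, Cyp2c55, Cyp2c70, Cyp2r1 and Cyp2u1 held in all 24 alternatives, that of Cyp2a5 in 11 and that of Cyp2c29 in 14, and no called difference changed its sign. The block split at the largest gap sets apart WT starved replicate 3 alone and repeats the fit without that array. It is therefore no separate check. The count of 8 members ran from 6 to 10 when single arrays were left out, and array weights made it 22 (14 higher, 8 lower) with 9499 of all genes called. The 3 calls of starvation in KO became 25 with array weights, 5 with the array spread split at its largest gap as a block, 9 with it split at the median, 8 with it as a covariate and 5 with the 2 KO groups alone, and 0 to 5 when single arrays were left out. The 2 calls of starvation in WT became 13, 4, 4 and 0 with array weights, the median split, the covariate and the 2 WT groups alone (8 at an unadjusted p under 0.05), and 0 to 3 when single arrays were left out. Array weights gave 5 calls between fed genotypes and 2 for the averaged genotype difference, where the other alternatives gave 0. The genotype difference in starved mice and the interaction had 0 calls in every alternative, with 3 to 9 and 1 to 8 members at an unadjusted p under 0.05. The cause of these shifts was not tested. Calls among all genes ranged from 610 to 9499 for averaged starvation, 45 to 7639 in KO and 11 to 5600 in WT.

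Title numbers are shared by only 3 pairs of starved and fed mice, whose deviations correlated at -0.17 in the WT pair and 0.45 and 0.53 in the KO pairs. These pairs are too few to settle whether the numbers pair the mice, and the main fit used no pairing. A fit with the title number as a random block put WT starved replicates S3 and 3 in the same block. With it the members called numbered 8 for averaged starvation, 3 in KO and 2 in WT, as without it.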
